A study of Homo sapiens with 15 samples.

Results

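The 10 genes described here encode the human ligands of NKG2D and NKp30, activating receptors of natural killer (NK) cells. The rule that defines them is this known role, and they are 10 of the 60649 genes in the count table. MICA and MICB (the MHC class I chain-related genes), ULBP1, ULBP2, ULBP3, RAET1E, RAET1G and RAET1L (the UL16-binding protein family) encode the 8 ligands of NKG2D. NCR3LG1 encodes B7-H6, a transmembrane ligand of NKp30, and BAG6 encodes a mostly intracellular chaperone that can be released and bind the same receptor. mRNA sequencing was performed in K562 cells, an established BCR-ABL-positive line from human chronic myeloid leukemia that is a standard target of NK cell killing. The 5 groups of 3 libraries were untreated cells and cells treated for 24 h with 0.15, 0.25, 0.5 or 1 µM martinostat, a histone deacetylase (HDAC) inhibitor. All groups were the same parental line grown in the same medium, and no vehicle or other agent is named for the untreated cells. The cells are 1 cell line, so the values describe that line.

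NKG2D ligands resemble MHC class I heavy chains. They are scarce on most healthy cells and are induced by stresses such as heat shock, DNA damage or transformation. MICA and MICB span the membrane, whereas ULBP1, ULBP2, ULBP3 and RAET1L products are held by a glycosylphosphatidylinositol (GPI) lipid anchor and RAET1E and RAET1G products have a transmembrane segment. An NK cell weighs such activating ligands against inhibitory ligands, chiefly MHC class I molecules, and proteases can shed the ligands from the target cell. Only transcripts were measured here.

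The libraries held 23755510 to 32805574 counts. All 12 K562 markers (erythroid genes, BCR and ABL1) were detected, with a summed level of 4333 to 4733 CPM (counts scaled to a common library size) in the untreated libraries and 1643 to 1775 CPM at 1 µM. The third principal component held 4.47% of the variance. On it, replicate 3 of the 0.25 µM group and replicate 3 of the 0.5 µM group stood apart from the other 13 libraries (scores of 70.1 and 75.4 against -42.5 to 16.0). Results were therefore also computed without them, and the values are given where they differ. Libraries were scaled by the TMM method. Across the 23711 tested genes, the fold change against untreated cells had a log2 median of 0.28, 0.32, 0.34 and 0.32 with ascending dose. The medians were 0.64, 0.85, 0.72 and 0.67 when libraries were scaled by their totals alone. Over the 14096 genes with at least 10 counts in every library they were 0.04, 0.05, 0.07 and 0.05. A change of a member is given beside the median of all tested genes, which depends on the scaling and on the genes included. In these bulk libraries, fewer cells expressing a gene and less RNA per cell cannot be told apart.

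The ULBP and RAET1 genes lie together on chromosome 6 (hg38, 149883179 to 150069121), MICA, MICB and BAG6 lie in the MHC region of the same chromosome, and NCR3LG1 lies on chromosome 11 (17351800 to 17377341). All 10 had a promoter in the RefSeq set (GRCh38.p14, 250 bases before and 50 bases after the annotated start). The 7 promoters of the genes that were called at 1 µM are shown because they are the sequences upstream of the changes described here. They are written 5′ to 3′ along the gene. Capitals mark matches, on either strand, to the GC box GGGCGG (found in 45.0% of all 35116 promoters), the CCAAT box CCAAT (34.6%) and the heat shock element GAANNTTC (6.77%). The RefSeq starts of MICA and MICB lie inside the gene bodies of the GENCODE annotation.
MICA, chr6:31403345-31403644, plus strand: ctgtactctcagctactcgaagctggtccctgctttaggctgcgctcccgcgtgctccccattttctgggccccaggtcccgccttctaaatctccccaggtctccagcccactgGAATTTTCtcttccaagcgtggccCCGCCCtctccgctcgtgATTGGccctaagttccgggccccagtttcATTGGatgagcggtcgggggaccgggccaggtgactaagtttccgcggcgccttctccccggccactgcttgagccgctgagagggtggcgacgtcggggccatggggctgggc
MICB, chr6:31497895-31498194, plus strand: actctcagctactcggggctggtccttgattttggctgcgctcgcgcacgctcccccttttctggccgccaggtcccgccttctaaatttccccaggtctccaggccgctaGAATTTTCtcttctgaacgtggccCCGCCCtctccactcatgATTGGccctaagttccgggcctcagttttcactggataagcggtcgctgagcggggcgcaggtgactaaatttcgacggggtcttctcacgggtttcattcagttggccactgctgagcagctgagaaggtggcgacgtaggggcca
ULBP1, chr6:149963693-149963992, plus strand: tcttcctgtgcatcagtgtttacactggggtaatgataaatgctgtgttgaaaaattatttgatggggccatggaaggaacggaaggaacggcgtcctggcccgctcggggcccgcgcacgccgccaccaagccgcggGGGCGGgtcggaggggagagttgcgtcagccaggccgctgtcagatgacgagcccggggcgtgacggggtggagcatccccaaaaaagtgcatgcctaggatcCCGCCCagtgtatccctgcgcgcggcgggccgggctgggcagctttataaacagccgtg
ULBP2, chr6:149941764-149942063, plus strand: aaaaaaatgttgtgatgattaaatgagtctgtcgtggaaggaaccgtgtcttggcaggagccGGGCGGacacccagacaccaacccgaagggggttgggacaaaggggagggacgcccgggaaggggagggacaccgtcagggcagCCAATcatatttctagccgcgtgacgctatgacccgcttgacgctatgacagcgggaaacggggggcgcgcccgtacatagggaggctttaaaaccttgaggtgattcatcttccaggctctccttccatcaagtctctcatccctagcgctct
ULBP3, chr6:150069072-150069371, minus strand: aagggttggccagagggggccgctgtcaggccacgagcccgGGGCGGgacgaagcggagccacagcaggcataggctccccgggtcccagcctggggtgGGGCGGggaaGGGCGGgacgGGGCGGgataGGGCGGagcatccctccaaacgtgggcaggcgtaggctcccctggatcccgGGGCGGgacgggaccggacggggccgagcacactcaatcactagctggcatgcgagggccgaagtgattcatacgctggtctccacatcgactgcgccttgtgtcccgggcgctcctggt
RAET1G, chr6:149923072-149923371, minus strand: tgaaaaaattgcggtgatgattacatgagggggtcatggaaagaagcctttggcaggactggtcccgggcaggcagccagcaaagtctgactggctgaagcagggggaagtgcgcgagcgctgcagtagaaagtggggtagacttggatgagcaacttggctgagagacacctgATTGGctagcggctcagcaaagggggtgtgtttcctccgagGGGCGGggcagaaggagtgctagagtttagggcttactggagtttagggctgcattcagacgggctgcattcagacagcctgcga
NCR3LG1, chr11:17351550-17351849, plus strand: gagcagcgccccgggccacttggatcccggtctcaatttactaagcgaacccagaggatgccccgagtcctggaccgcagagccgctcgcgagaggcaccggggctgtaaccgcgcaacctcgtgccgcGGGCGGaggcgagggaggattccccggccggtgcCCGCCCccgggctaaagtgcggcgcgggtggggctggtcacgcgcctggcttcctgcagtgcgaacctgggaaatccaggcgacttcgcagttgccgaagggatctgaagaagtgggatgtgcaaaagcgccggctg

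MICA and MICB were 77.9% identical over these 300 bases and 78.6% identical over their coding sequence. Each held 1 heat shock element, at 135 and 139 bases before the start, together with 1 GC box, and MICA held 2 and MICB 1 CCAAT box. ULBP3 held 6 GC boxes, ULBP1 and NCR3LG1 held 2 each, and ULBP2 and RAET1G held 1 GC box and 1 CCAAT box each. None of the 7 held the cAMP response element TGACGTCA (1.85% of promoters) or the E-box CACGTG (7.26%). RAET1L, which was near 0, and BAG6, the most abundant member, held none of the 5 motifs in the window of their first listed start. The promoters ranged from 56.3% GC in RAET1G to 70.7% in ULBP3 among the 7 shown, against a median of 58.7% over all promoters. A match describes letters only and not a bound site.

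Transcripts of 6 ligand genes were called higher at 1 µM than in untreated cells and NCR3LG1 was called lower, whereas BAG6 was not called. RAET1E and RAET1L had too few counts to be tested, so 8 of the 10 genes were tested. The calls (edgeR quasi-likelihood test, Benjamini-Hochberg adjusted p below 0.05 over all tested genes) numbered 3 higher and 1 lower at 0.15 µM. There were 5 higher and 3 lower at 0.25 µM, and 6 higher and 1 lower at each of the 2 higher doses. Over all tested genes, 31.9%, 37.4%, 39.4% and 38.8% were called higher and 19.4%, 24.8%, 27.6% and 27.5% were called lower at these doses. ULBP2, ULBP3 and RAET1G passed the filter on low counts only through their treated libraries, so that they had to be high there, and the counts are a description of the 8 genes. The libraries of treated and untreated cells did not overlap for 6, 8, 7 and 7 of the 8 genes at the 4 doses, and for 63.2%, 67.5%, 69.9% and 74.9% of all tested genes.

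**Figure D1:**
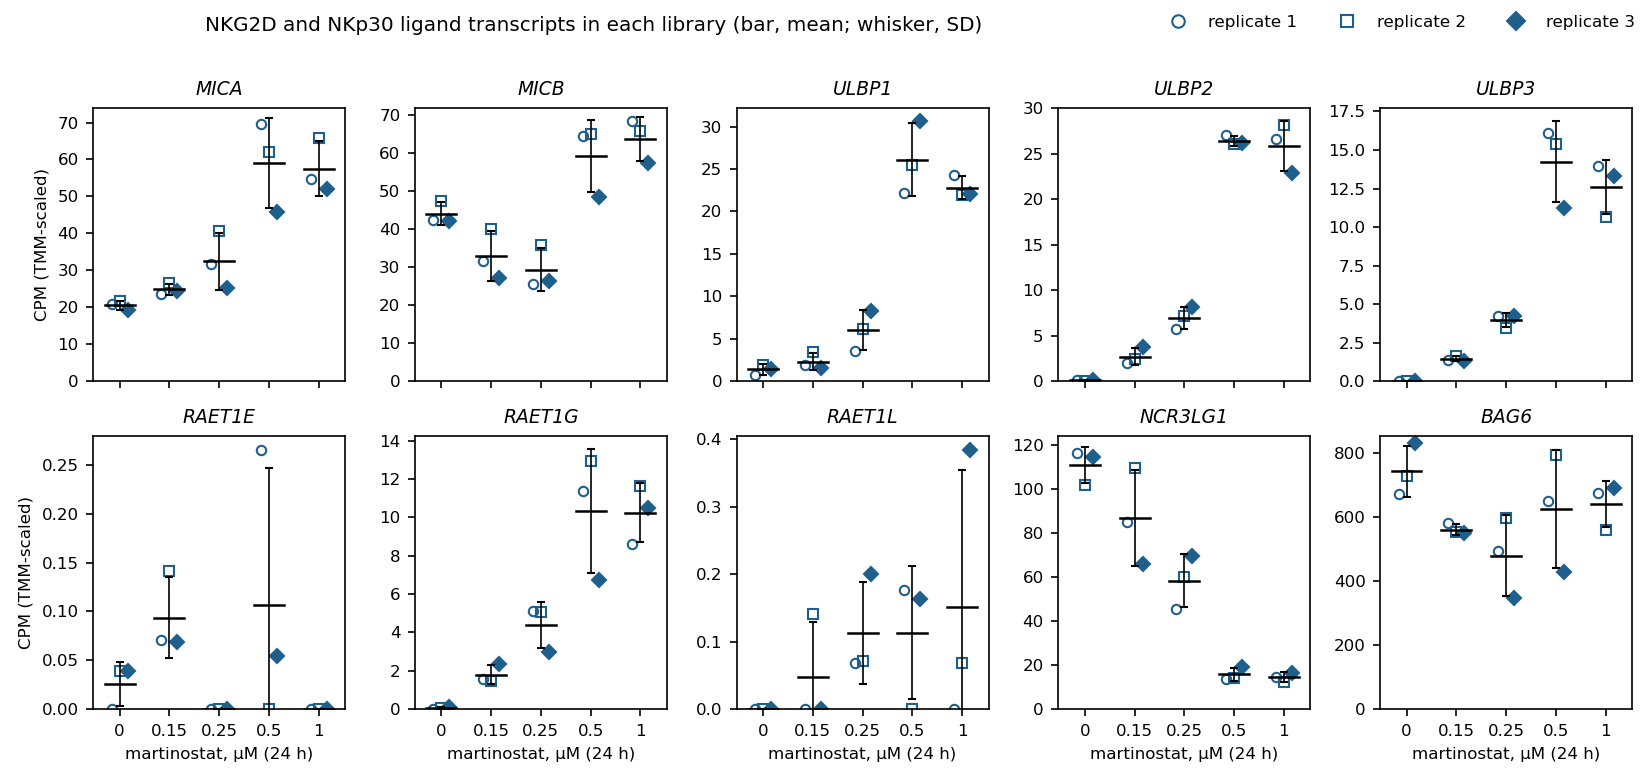
Level of each of the 10 ligand genes in CPM (y axis, scaled per gene) against martinostat dose (x axis, categories). Points are single libraries, with replicate 3 filled, bars are means and whiskers SD (n = 3, cut at 0). ULBP1, ULBP2, ULBP3 and RAET1G stepped up at 0.5 µM, NCR3LG1 stepped down, and RAET1E and RAET1L were at most 0.384 CPM in any library.

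ULBP2, a GPI-anchored ligand, was nearly silent in untreated cells. Its raw counts were 2, 2 and 4 in the untreated libraries, 58, 68 and 108 at 0.15 µM, 168, 200 and 324 at 0.25 µM, 612, 622 and 964 at 0.5 µM, and 749, 816 and 655 at 1 µM. Every treated library lay above every untreated one, and the 0.5 and 1 µM libraries lay above all those of the lower doses. The level went from 0.105 ± 0.0445 CPM (SD, n = 3) to 25.9 ± 2.74 CPM at 1 µM. The log2 fold change was 4.63 (SE 0.35), 6.00, 7.91 and 7.88 (SE 0.33) with ascending dose (edgeR adjusted p = 3.88e-09 and 4.25e-13 at the lowest and highest dose). The untreated level rests on 8 counts in all. ULBP2 passed the filter on low counts only through its treated libraries, so only a higher call against untreated cells was open to it. A stretch of 9.89% of its exon bases recurs exactly in RAET1L, and the coding sequences of these genes were 96.8% identical.

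ULBP3, also GPI-anchored, had 0 counts in each untreated library. It had 40, 46 and 38 counts at 0.15 µM, 124, 96 and 169 at 0.25 µM, 365, 368 and 413 at 0.5 µM, and 393, 308 and 381 at 1 µM. It was thus detected in every treated library and in no untreated one. Against a floor of 3 counts over the untreated group, the level was at least 36.5-fold higher at 0.15 µM, at least 101-fold at 0.25 µM, at least 348-fold at 0.5 µM and at least 319-fold at 1 µM. If mates were counted singly, that floor stands for fewer than 3 read pairs and these bounds are too high. The edgeR adjusted p was 1.3e-08 at 0.15 µM and 5.39e-12 at 1 µM. ULBP3 passed the filter on low counts only through its treated libraries, so only a higher call was open to it. Of its exon bases, 5.95% lie in exact repeats of 100 bases or more elsewhere in the genome.

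RAET1G encodes a transmembrane member of the family. Its counts were 0, 2 and 3 in untreated cells, 44, 42 and 69 at 0.15 µM, 151, 141 and 119 at 0.25 µM, 258, 309 and 247 at 0.5 µM, and 243, 337 and 301 at 1 µM. No treated library overlapped the untreated range. The log2 fold change was 4.69 (SE 0.54), 5.96, 7.20 and 7.19 (SE 0.50) over the 4 doses (edgeR adjusted p = 8.29e-07 and 3.26e-10 at the lowest and highest). The untreated level of 0.0649 ± 0.0597 CPM (SD, n = 3) rests on 5 counts. RAET1G passed the filter on low counts only through its treated libraries, so only a higher call against untreated cells was open to it. Exons of the antisense gene RAET1E-AS1 cover 9.29% of the RAET1G exon bases on the other strand.

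ULBP1, another GPI-anchored ligand, had the most transcripts of the ULBP family in untreated cells. The counts were 18, 50 and 38 in untreated cells, 55, 98 and 44 at 0.15 µM, 105, 172 and 330 at 0.25 µM, 502, 608 and 1129 at 0.5 µM, and 686, 636 and 633 at 1 µM. At 0.15 µM the CPM of 1 library lay within the untreated range, and the gene was not called (log2 fold change 0.73, SE 0.37, edgeR adjusted p = 0.108). The call was higher at 0.25 µM (2.11, SE 0.35, edgeR adjusted p = 5.69e-05). The values were 4.23 (SE 0.37) at 0.5 µM and 4.03 (SE 0.36) at 1 µM, with edgeR adjusted p of 1.52e-08 and 2.63e-08. Scaling by library totals, which raises all genes, made the 0.15 µM value 1.10 and called it (edgeR adjusted p = 0.0344). Its values were highest in replicate 3 at both 0.25 and 0.5 µM, the libraries that stood apart, and without them the log2 fold changes were 1.82 and 4.13.

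MICA had counts of 513, 559 and 491 in untreated cells, 672, 750 and 712 at 0.15 µM, 933, 1133 and 1004 at 0.25 µM, 1578, 1480 and 1681 at 0.5 µM, and 1540, 1909 and 1491 at 1 µM. The level was 20.6 ± 1.23 CPM (SD, n = 3) in untreated cells, 24.9 ± 1.46 at 0.15 µM, 32.4 ± 7.73 at 0.25 µM, then 59.1 ± 12.2 at 0.5 µM and 57.5 ± 7.40 at 1 µM. All treated libraries lay above the untreated ones. The log2 fold change of 0.27 (SE 0.18) at 0.15 µM equalled the median of all genes to within 0.01 and was not called (edgeR adjusted p = 0.215). MICA was called higher at 0.25 µM (0.65, SE 0.18, edgeR adjusted p = 0.00374). The 0.5 µM and 1 µM values were 1.52 and 1.48 (SE 0.18 each), with edgeR adjusted p of 5.29e-07 and 7.23e-07. At 0.15 µM it was called higher under library totals (0.63, edgeR adjusted p = 0.0019) and when TMM used abundant genes alone (0.53, edgeR adjusted p = 0.00886). Relative to the all-gene median the value was -0.01 under each of these scalings. It was also called with at least 10 counts in every library (0.45, all-gene median 0.04). Limma on log2(FPKM + 1) (0.36, median 0.04) and on log2(FPKM + 0.1) (0.59, median 0.18) called it as well. These values lay above their medians, whereas the summed counts of MICA and MICB gave -0.16, not called.

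MICB moved down and then up with dose. Its counts were 1040, 1229 and 1079 in untreated cells, 901, 1131 and 789 at 0.15 µM, 758, 1000 and 1051 at 0.25 µM, 1460, 1553 and 1780 at 0.5 µM, and 1926, 1905 and 1644 at 1 µM. In CPM the means were 44.1 ± 2.94 untreated, 32.9 ± 6.48 at 0.15 µM, 29.3 ± 5.66 at 0.25 µM, then 59.3 ± 9.43 at 0.5 µM and 63.8 ± 5.77 at 1 µM (SD, n = 3 each). The libraries of the lower doses all lay below the untreated range and those of the higher doses all lay above it. MICB was called lower at 0.15 µM (log2 fold change -0.42, SE 0.17, edgeR adjusted p = 0.0456) and at 0.25 µM (-0.59, edgeR adjusted p = 0.00549). The calls were higher at 0.5 µM (0.43, edgeR adjusted p = 0.0328) and 1 µM (0.53, edgeR adjusted p = 0.00955). These higher values lay 0.09 and 0.22 above the median of all genes. The step from 0.25 to 0.5 µM was 1.02 (SE 0.17, edgeR adjusted p = 0.000152). The calls at the lower doses, but not the negative sign, depend on the scaling: with library totals the values were -0.06 and -0.07 and when TMM was computed on genes averaging 10 CPM or more -0.16 and -0.18, none called, although relative to the median of all genes they stayed between -0.70 and -0.92.

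Of 27 alternatives, 16 removed the call of MICB at 0.15 µM. Among these were 9 that left out 1 library (each untreated library, replicates 1 and 3 at 0.15 µM, replicate 2 at 0.5 µM and each library at 1 µM), with log2 fold changes of -0.45 to -0.30 and edgeR adjusted p from 0.0512 to 0.168. The call at 0.5 µM was lost without replicate 1 or 3 of the untreated cells (0.40 and 0.39) or replicate 1 or 2 of 0.5 µM (0.36 and 0.35), with edgeR adjusted p from 0.0939 to 0.119. The call at 1 µM was kept in all 27 alternatives. When the counts of MICA and MICB, which share much of their sequence, were summed, the pair had a log2 fold change of -0.16 at 0.15 µM and -0.07 at 0.25 µM. No exact repeat of 100 bases or more was found in the exons of either gene.

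**Figure D2:**
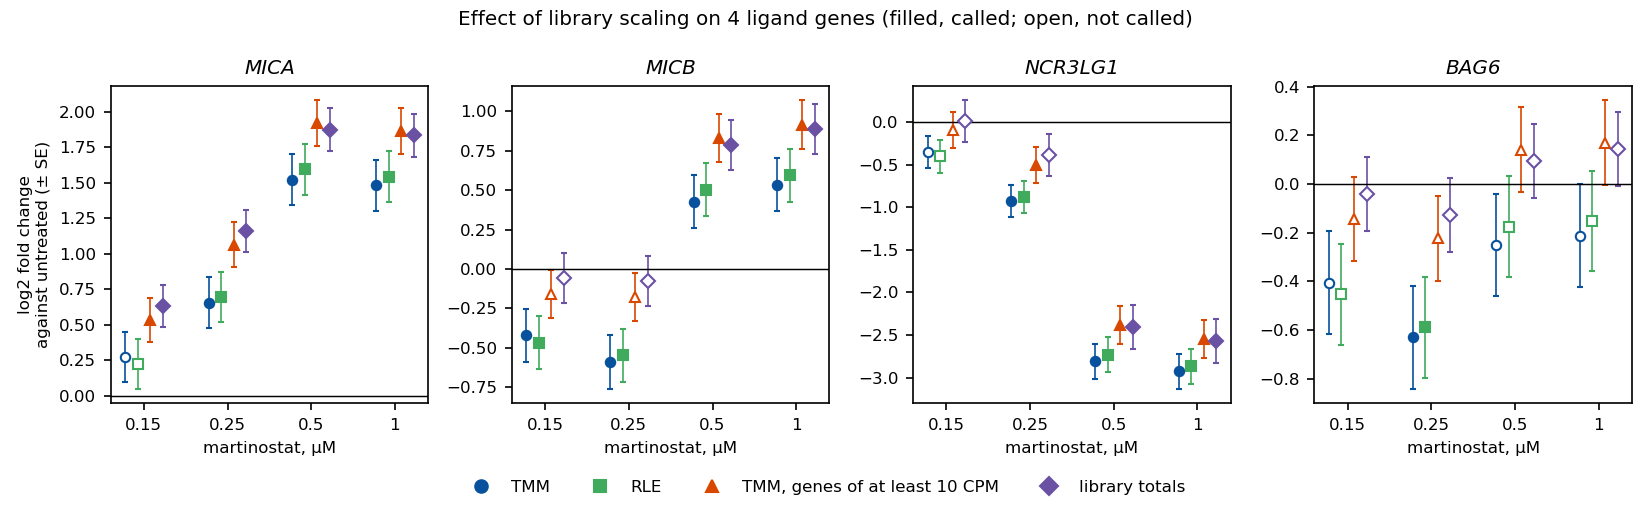
Log2 fold change against untreated cells (y axis, ± SE) of MICA, MICB, NCR3LG1 and BAG6 at each dose (x axis) under 4 library scalings; filled symbols were called and open ones were not. Scaling by library totals or by abundant genes shifts all values upward, and with it the calls of MICB and BAG6 at 0.15 and 0.25 µM are lost or absent, while NCR3LG1 is at -2.38 or lower at 0.5 and 1 µM under all of them.

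NCR3LG1, the NKp30 ligand B7-H6, was the second most abundant of the 10 transcripts per exon kilobase in untreated cells and fell with dose. Its counts were 2852, 2634 and 2927 in untreated cells, 2420, 3104 and 1922 at 0.15 µM, 1344, 1676 and 2786 at 0.25 µM, 315, 341 and 706 at 0.5 µM, and 415, 360 and 476 at 1 µM. The level was 111 ± 8.06 CPM (SD, n = 3) untreated, 86.9 ± 21.8 at 0.15 µM, 58.4 ± 12.2 at 0.25 µM, then 15.8 ± 2.95 at 0.5 µM and 14.6 ± 2.09 at 1 µM. At 0.15 µM 1 library lay inside the untreated range and the gene was not called (-0.35, SE 0.19, edgeR adjusted p = 0.131). NCR3LG1 was called lower at 0.25 µM (-0.92, SE 0.19, edgeR adjusted p = 0.000376). The log2 fold changes were -2.81 at 0.5 µM and -2.93 at 1 µM (SE 0.21 each), with edgeR adjusted p of 6.88e-10 and 4.21e-10. Without replicate 2 of 0.15 µM the value at that dose was -0.55 and was called (edgeR adjusted p = 0.0319), and without both libraries that stood apart it was -0.35 and was called as well (edgeR adjusted p = 0.046). Under library totals it was 0.01 at 0.15 µM, and the value at 0.25 µM was -0.39 and not called (edgeR adjusted p = 0.177).

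BAG6 was the most abundant of the 10 transcripts in every group. Its counts were 16431, 18851 and 21241 in untreated cells, 16552, 15667 and 16012 at 0.15 µM, 14605, 16755 and 13862 at 0.25 µM, 14739, 19031 and 15796 at 0.5 µM, and 19037, 16214 and 19826 at 1 µM. The treated and untreated ranges in CPM were apart at 0.15 and 0.25 µM and overlapped at 0.5 and 1 µM. The only call was at 0.25 µM (-0.63, SE 0.21, edgeR adjusted p = 0.0147). That call failed in 7 of 26 alternatives, including leaving out replicate 3 of the untreated cells (-0.55, edgeR adjusted p = 0.0625) or replicate 3 of 0.25 µM (-0.42, edgeR adjusted p = 0.0764). Without both libraries that stood apart, BAG6 was called lower at 0.15 µM (-0.40, edgeR adjusted p = 0.00553) and at 0.25 µM (-0.42, edgeR adjusted p = 0.00877). At 0.15 µM leaving out replicate 3 of 0.5 µM alone gave a call as well (-0.40, edgeR adjusted p = 0.0469). At 0.5 and 1 µM the values of -0.25 and -0.21 changed sign under library totals (0.09 and 0.14) and were called under neither scaling.

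RAET1E and RAET1L were at or near the limit of detection. RAET1E had 0 to 6 counts and RAET1L 0 to 11 counts per library, and RAET1L had 0 in all 3 untreated libraries. Their mean levels did not exceed 0.106 and 0.151 CPM in any group. In an exact permutation test of 3 against 3 libraries (two-sided, smallest possible p of 0.1), no dose gave an adjusted p below 0.4 over the 8 tests. A test of this size cannot pass the threshold, so it says nothing about a difference. An annotated gene without a symbol covers 14.6% of the RAET1E exon bases on the same strand.

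**Figure D3:**
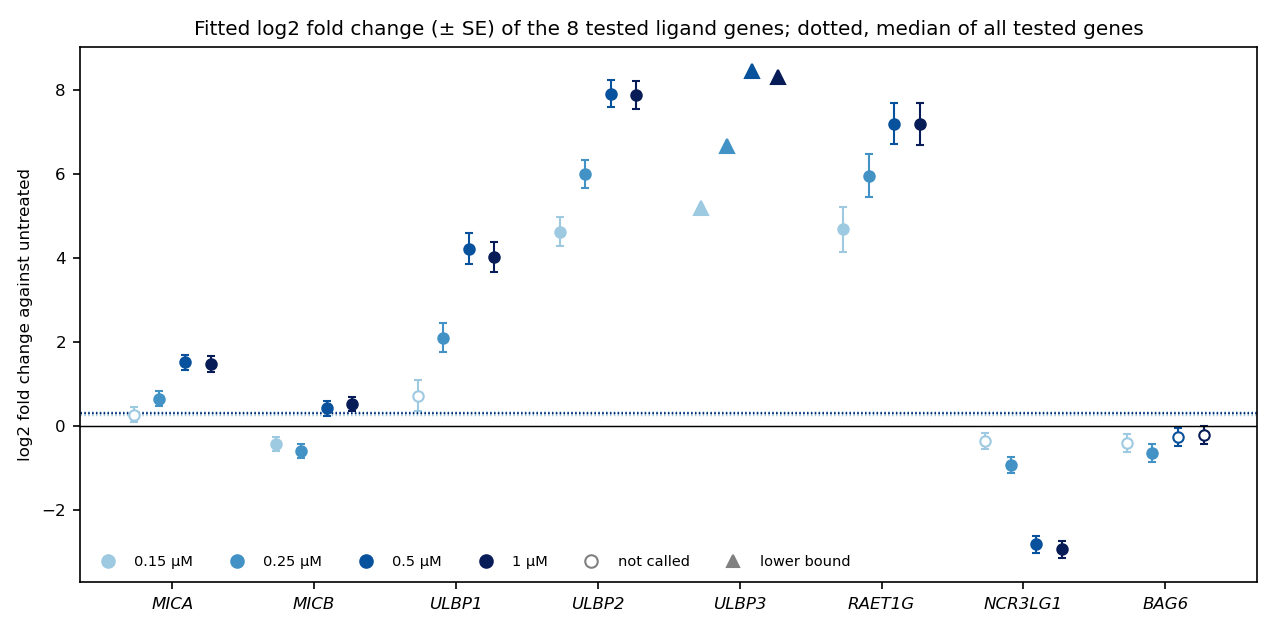
Log2 fold change against untreated cells (y axis, ± SE) of the 8 tested ligand genes (x axis) at 4 doses. Open symbols were not called, and dotted lines are the medians of all tested genes. Triangles for ULBP3 are lower bounds against the floor of 3 counts, which are too high if mates were counted singly. ULBP2, ULBP3 and RAET1G stand highest, MICA at 0.15 µM and MICB at 0.5 µM lie close to the all-gene median, and NCR3LG1 lies at -2.93 at 1 µM.

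Changes continued between doses up to 0.5 µM. From 0.15 to 0.25 µM, ULBP1 (log2 fold change 1.39, SE 0.33), ULBP2 (1.36, SE 0.21), ULBP3 (1.45, SE 0.23) and RAET1G (1.27, SE 0.32) were called higher, with edgeR adjusted p of 0.0119, 0.000561, 0.000832 and 0.0146, and none was called lower. Of all genes, 4.96% were called higher and 7.32% lower in that step. The ULBP1 call was lost without replicate 1 or 3 of 0.15 µM or replicate 3 of 0.25 µM (1.10 to 1.27), and that of RAET1G without replicate 1 or 2 of 0.15 µM or replicate 2 of 0.25 µM (1.17, 1.15 and 1.15), with edgeR adjusted p up to 0.069. NCR3LG1 was not called in that step (-0.57, SE 0.19, edgeR adjusted p = 0.0571) and was called without replicate 3 of 0.15, 0.25 or 0.5 µM (-0.69, -0.70 and -0.57, edgeR adjusted p = 0.0417, 0.0388 and 0.0242). Without both libraries that stood apart, MICA (0.56, edgeR adjusted p = 0.011) and NCR3LG1 (-0.70, edgeR adjusted p = 0.00607) were called as well.

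From 0.25 to 0.5 µM, 6 genes were called higher, 1 was called lower and BAG6 was not called, against 14.4% higher and 16% lower over all genes. The steps were 2.12 (SE 0.32) for ULBP1, 1.92 (SE 0.21) for ULBP2, 1.84 (SE 0.22) for ULBP3, 1.24 (SE 0.31) for RAET1G, 1.02 (SE 0.17) for MICB, 0.87 (SE 0.18) for MICA and -1.88 (SE 0.20) for NCR3LG1, with edgeR adjusted p of at most 0.00424. The labels do not state a pairing of these 2 groups. Deviations from the group means correlated between equal replicate numbers (0.266, 0.268 and 0.579). They also did between replicate 2 of 0.25 µM and replicate 1 of 0.5 µM (0.236), so a pairing is uncertain. A fit of the 6 libraries with the replicate number as a block, which assumes that pairing, called 7 genes higher and 1 lower. Without both libraries that stood apart, BAG6 was the additional gene called higher (0.41, edgeR adjusted p = 0.0305), as it was without replicate 3 of 0.5 µM alone (0.59, edgeR adjusted p = 0.0168).

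Between 0.5 and 1 µM none of the 8 genes was called. The differences ran from -0.20 (SE 0.30) for ULBP1 to 0.11 (SE 0.17) for MICB. Over all genes 0% were called higher and 0% lower by edgeR. DESeq2 also called 0 genes, limma on the deposited FPKM called 1, and 372 genes had an unadjusted p below 0.05 in edgeR. Against 0.15 µM, the 1 µM group again had 6 ligand genes higher and NCR3LG1 lower (-2.57, SE 0.20, edgeR adjusted p = 9.09e-09), with 21.5% of all genes higher and 23.1% lower. At 0.5 µM MICA, ULBP1, ULBP2, ULBP3 and RAET1G had covered 101% to 115% of the CPM difference between untreated and 1 µM, and NCR3LG1 98.8%. At 0.25 µM the same genes had covered 21.5% (ULBP1) to 54.5% (NCR3LG1) of it. MICB had moved the other way at that dose. These shares and the fold changes against untreated cells use the same untreated libraries.

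**Figure D4:**
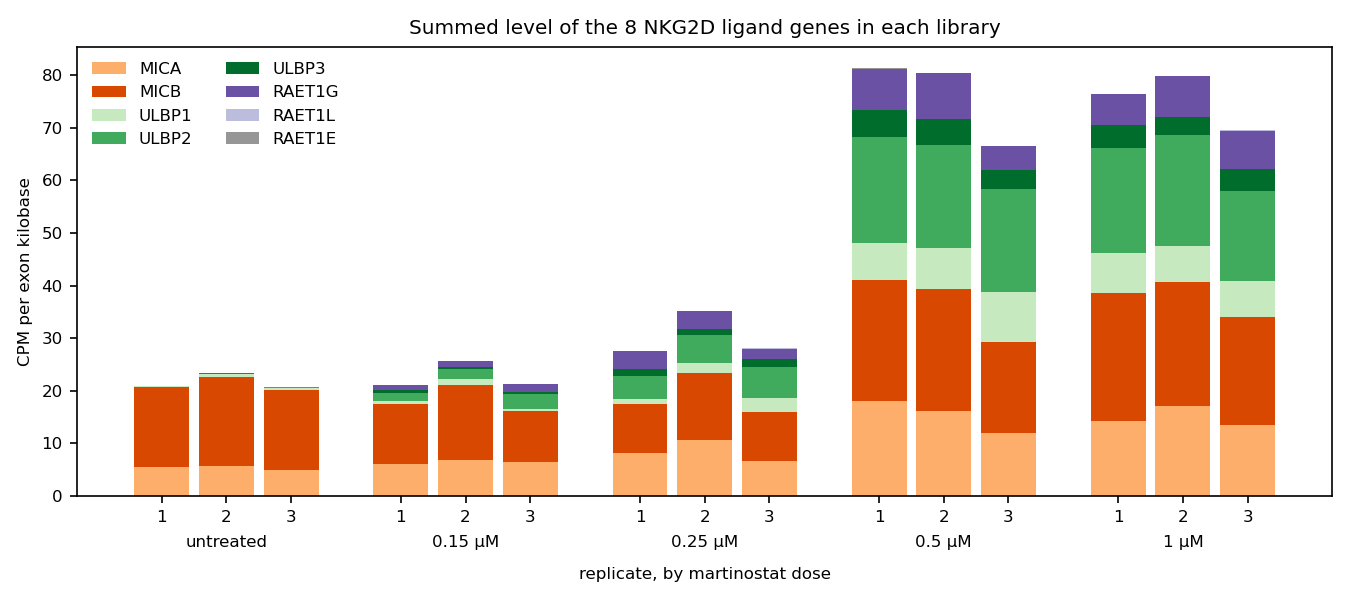
Summed level of the 8 NKG2D ligand genes (y axis, CPM per exon kilobase) in each library (x axis, replicates within dose), stacked by gene. MICB and MICA make up nearly all of the untreated bars, and at 0.5 and 1 µM the ULBP and RAET1 genes make up about as much of the sum as the MIC genes.

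Summed per exon kilobase, so that genes of different length can be set side by side, the 8 NKG2D ligand genes gave 21.7 ± 1.42 CPM per kilobase in untreated cells. The sum was 22.7 ± 2.57 at 0.15 µM, 30.3 ± 4.22 at 0.25 µM, then 76.1 ± 8.22 at 0.5 µM and 75.3 ± 5.24 at 1 µM (SD, n = 3 each). The ULBP and RAET1 genes made up 2.56% ± 1.01 of the sum in untreated cells, 19.9% ± 4.24 at 0.15 µM, 37.99% ± 4.89 at 0.25 µM, then 52.2% ± 3.55 at 0.5 µM and 49.9% ± 1.09 at 1 µM. No treated library overlapped the untreated ones in this share. The exact permutation test gave its smallest possible p of 0.1 for the share at each dose and for the sum from 0.25 µM on (two-sided, 0.1231 after Benjamini-Hochberg adjustment over 16 tests), and p = 0.5 for the sum at 0.15 µM. A test of this size cannot pass the threshold, so it does not decide whether the share or the sum differed.

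The order of the genes per exon kilobase changed with dose. In untreated cells BAG6 (118 ± 12.8 CPM per kilobase) was followed by NCR3LG1 (17.4 ± 1.27) and MICB (15.8 ± 1.05), whose ranges overlapped, then by MICA (5.35 ± 0.320) and ULBP1 (0.431 ± 0.188). At 1 µM BAG6 (102 ± 11.3) was followed by MICB (22.8 ± 2.06), ULBP2 (19.4 ± 2.05) and MICA (14.9 ± 1.92), each overlapping its neighbour. ULBP1 and RAET1G, which overlapped, and ULBP3 came next, and NCR3LG1 (2.29) ranked eighth, below ULBP3 in every library. By the deposited FPKM, which divide by another gene length, ULBP2 and MICA changed places at 1 µM.

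ULBP2, ULBP3, RAET1G and MICB were the members called at all 4 doses. Over the 15 libraries, which form 5 dose groups, the genes with the most similar log2 CPM were LGMN (a lysosomal protease, Pearson r = 0.996) and ALPG (0.995) for ULBP2, and C2orf78 (0.998) and LGMN (0.997) for ULBP3. For RAET1G they were CDKN1A, the cell cycle inhibitor p21 (0.995), and XIRP1 (0.993), and for MICB TCFL5 (0.977) and MRPL10 (0.971). These coefficients describe 15 points that share their dose groups.

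Transcripts of the receptors were looked at as a check for other cells. KLRK1, which encodes NKG2D, had 10 to 13 counts in the untreated libraries and 0 to 3 at 1 µM, and 62.4% of its exon bases lie under the read-through gene KLRC4-KLRK1. NCR3, which encodes NKp30, had 50, 50 and 56 counts in untreated cells, 373, 370 and 492 at 0.15 µM and 168, 328 and 223 at 1 µM. It was called higher at every dose (log2 fold change 2.02, SE 0.29, edgeR adjusted p = 5.68e-06 at 1 µM). Of the 16 NK cell genes on the list, 10 were tested. At 1 µM 7 of them were called higher and 2 lower with a median of 2.09, against 38.8% and 27.5% of all tested genes. The highest was GNLY, a cytolytic granule protein (5.08, edgeR adjusted p = 9.89e-07), followed by HCST (0.0401 to 0.498 CPM) and PRF1, and NCR1 (-3.09) and KLRK1 were the lower calls. Of the 10 tested, GNLY, HCST and TYROBP had fewer than 10 counts over the untreated libraries. These 3 could hardly be called lower, and their folds rest on levels near 0. The summed level of the list was 16.9 to 21.2 CPM in untreated cells, higher at 0.15 µM (37.9 to 45.3 CPM) and 0.25 µM (38.5 to 44.8 CPM), 20.8 to 23.76 CPM at 0.5 µM and 16.7 to 27.0 CPM at 1 µM. At 0.5 µM all 16 genes were detected, and in each other group 1 gene was at 0. The 10 markers of T, B and stromal cells summed to 28.7 to 34.1 CPM untreated and 313 to 499 CPM at 1 µM, of which COL1A1, a collagen gene, took 398 CPM on average, with 2 genes and 0 genes at 0. At 1 µM COL1A1 and CD8A, which had 0 counts in the untreated libraries, were called higher and CD3D and COL1A2 lower. The part of other cells in the ligand values was not tested.

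Ligands of other activating, adhesion or costimulatory receptors of NK cells were more often called higher than lower at the 2 lower doses and less often at the 2 higher ones, where other scalings evened this out. Over all tested genes, 31.9%, 37.4%, 39.4% and 38.8% were called higher and 19.4%, 24.8%, 27.6% and 27.5% lower with ascending dose. Of the 13 ligands tested, 8, 7, 3 and 3 were called higher and 1, 2, 6 and 7 lower. Their medians were 0.85, 0.54, -0.31 and -0.37. Scaled by library totals, 0.5 µM gave 5 higher and 6 lower calls with a median of 0.09, and 1 µM gave 5 of each with a median of -0.02. TNFSF9, the 4-1BB ligand, had the highest log2 fold change at 1 µM (4.14, edgeR adjusted p = 4.2e-13), followed by CD70, the CD27 ligand (3.26, edgeR adjusted p = 2.63e-08), and SLAMF7 (1.55, edgeR adjusted p = 0.00309). CLEC2B, the NKp80 ligand (-2.58, edgeR adjusted p = 1.02e-06), CD58, the CD2 ligand (-1.97, edgeR adjusted p = 9.63e-08), and SLAMF6 (-1.74, edgeR adjusted p = 0.00358) were the lowest. PVR, a DNAM-1 ligand chosen here after its values were seen, was called higher at 0.15 µM (1.32) and 0.25 µM (0.54) and lower at 0.5 µM (-1.10) and 1 µM (-1.01).

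Ligands of inhibitory receptors were called higher at every dose in 10, 11, 10 and 10 of 13 tested genes and lower in none, and under library totals in 12, 13, 11 and 11. Over all tested genes, 31.9%, 37.4%, 39.4% and 38.8% were called higher and 19.4%, 24.8%, 27.6% and 27.5% lower in the main fit. Of the 13 genes, 5 had fewer than 10 counts over the untreated libraries (HLA-F, CD274, CEACAM1, CDH1 and CDH2) and could hardly be called lower. The medians were 2.69, 3.93, 4.41 and 4.58, and 2.06, 2.76, 3.16 and 3.21 with HLA-F and CD274, which were at 0 in untreated cells, set to their lower bound. NECTIN1 had a log2 fold change of 7.15 (edgeR adjusted p = 9.9e-13) at 1 µM. HLA-F was at 0.977 CPM at 1 µM, at least 24.8-fold higher than untreated by the floor of 3 counts, and CDH2 (N-cadherin) went from 0.0261 to 3.12 CPM. HLA-E, the ligand of the inhibitory receptor NKG2A, was chosen after its values were seen: it was called higher at every dose, from 29.2 CPM untreated to 270.4 CPM at 1 µM (3.21, edgeR adjusted p = 1.81e-10). The class I light chain B2M was not called at any dose (-0.31, SE 0.17, edgeR adjusted p = 0.12 at 1 µM). HLA genes are highly polymorphic and similar to each other, so their counts are uncertain.

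Among 11 proteases, cofactors and inhibitors that bear on ligand shedding, 7 were called higher at every dose and 2 to 3 lower, and under library totals 0 to 1 were lower. The main fit called 31.9% to 39.4% of all tested genes higher and 19.4% to 27.6% lower, depending on dose. The inhibitors TIMP3 (from 0.0273 to 6.55 CPM at 1 µM) and TIMP2 (log2 fold change 7.65, edgeR adjusted p = 1.6e-13) and the protease MMP9 (from 0.0273 to 4.80 CPM) were the highest. PDIA6 (-1.47, edgeR adjusted p = 5.44e-08), a disulfide isomerase that aids MICA shedding, ADAM9 (-0.56, edgeR adjusted p = 0.0136) and the sheddase ADAM17 (-0.32, edgeR adjusted p = 0.0248) were the lower calls at 1 µM. The median of the list was 0.54 at 1 µM, against 0.32 over all genes. Of the 11 genes, MMP2, MMP9 and TIMP3 had fewer than 10 counts over the untreated libraries.

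Of 16 transcription factors and damage kinases known to act on NKG2D ligand genes, 1, 2, 2 and 2 were called higher and 10, 12, 12 and 12 lower, with medians of -0.49, -1.14, -1.43 and -1.27. The main fit called 31.9% to 39.4% of all tested genes higher and 19.4% to 27.6% lower, depending on dose. Under library totals 4, 9, 10 and 10 of the 16 regulators were lower. MYC (-4.13, edgeR adjusted p = 1.68e-10), NFKB1 (-2.94, edgeR adjusted p = 6.66e-11) and E2F3 (-2.82, edgeR adjusted p = 1.63e-11) were the lowest at 1 µM. EGR1, an immediate early factor (1.90, edgeR adjusted p = 6.25e-09), and ATM, the DNA damage kinase (0.72, edgeR adjusted p = 0.00967), were the only ones higher there. At 1 µM 38.8% of all tested genes were called higher and 27.5% lower. Of 17 tested enzymes of GPI anchor synthesis, which the anchored ligands use, 5 were called higher and 8 lower there, with a median of -0.32. Under library totals 6 and 6 were called, with a median of 0.03. PGAP1 (3.91, edgeR adjusted p = 3.62e-06), PIGV (2.09, edgeR adjusted p = 1.59e-10) and PIGM (1.06, edgeR adjusted p = 6.49e-06) were the highest, and PIGU (-1.67, edgeR adjusted p = 4.62e-07), PIGK (-1.52, edgeR adjusted p = 7.22e-08) and PIGB (-1.48, edgeR adjusted p = 4.07e-06) the lowest. Among 3 tested death receptors, TNFRSF10B (TRAIL receptor DR5) was called higher at 1 µM (2.47, edgeR adjusted p = 3.58e-10), and TNFRSF10A (DR4, -2.66, edgeR adjusted p = 9.63e-12) and TNFRSF1A (-0.46, edgeR adjusted p = 0.0105) lower. Under library totals and under TMM from abundant genes 1 of the 3 was lower there, and the median, which is the value of TNFRSF1A, was -0.11 and -0.08.

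**Figure D5:**
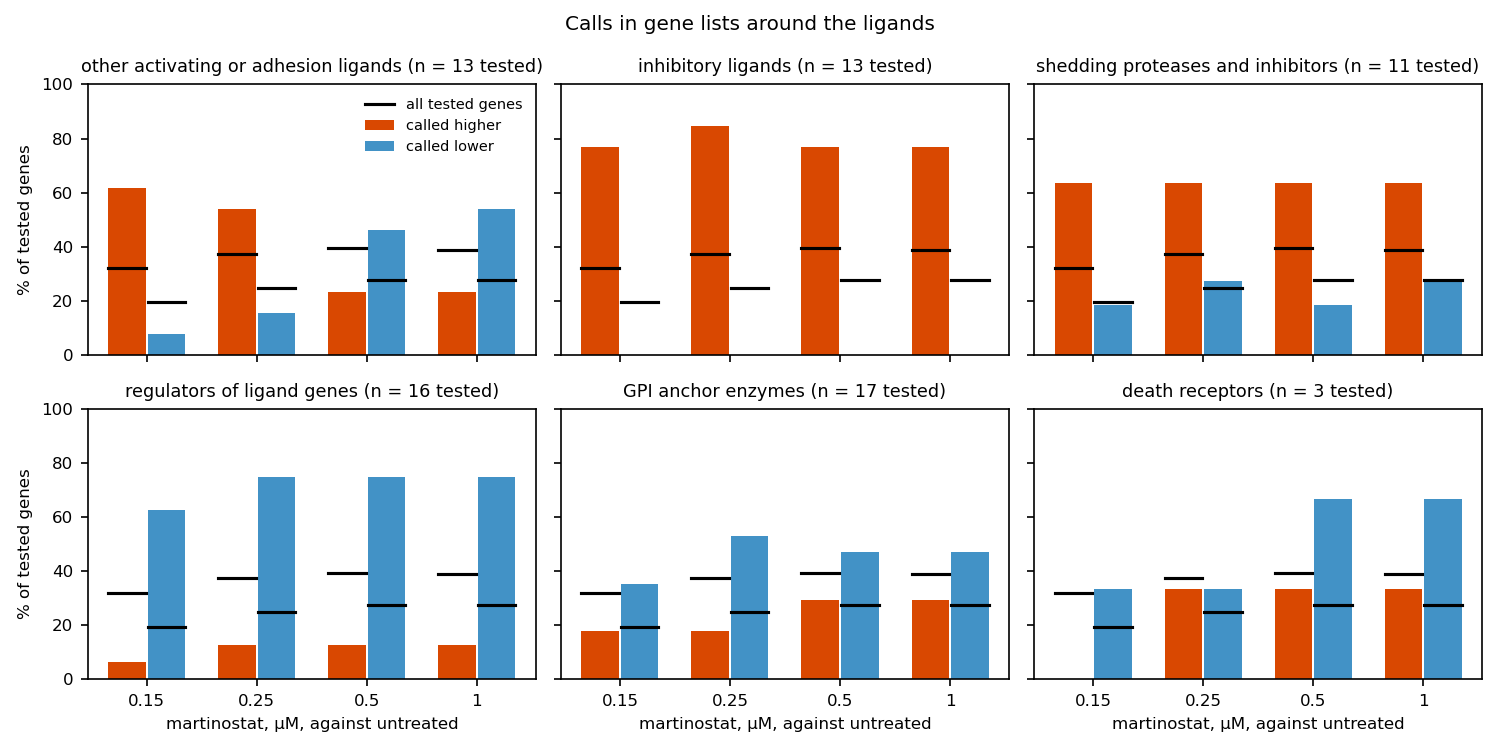
Percent of tested genes called higher or lower against untreated cells (y axis) at each dose (x axis) in 6 gene lists around the ligands; black bars give the same percent over all tested genes. Of the inhibitory ligands 10 or 11 of 13 genes were called higher, of which 5 were near 0 in untreated cells and could hardly be called lower, and of the regulators 10 to 12 of 16 were called lower.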

How the data were processed

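Poly(A) RNA of K562 cells was sequenced as paired ends from libraries made with a directional kit. According to the study's methods and the submitters' processing notes, the authors trimmed reads with Trim Galore 0.6.10 and Trimmomatic 0.38, aligned them to hg38 with HISAT2 2.2.1 and counted them per GENCODE 38 gene with featureCounts 1.5.3; strand and multi-mapping settings were not given in the sources used here. The deposited count table holds raw counts of 60649 genes. Of counts from 1 to 19, 59.3% were even, so mates may have been counted singly. The p-values may then be too small, which was not tested. The FPKM deposited by the authors divide by the genomic span (within 0.1%) in 94.4% of 48212 genes. They were used only as an alternative, for limma and for the order of the members by level.

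Members and gene lists were chosen with earlier results of these data known. Groups and replicate numbers come from the labels, which name biological replicates. Genes were filtered with filterByExpr, scaled by TMM and tested in 1 edgeR 4.0.16 quasi-likelihood fit (robust) of all 15 libraries, where p-values were adjusted by Benjamini-Hochberg over 23711 genes. In simulated data for 1 µM against untreated (18744 genes), 57% of genes changed by 2-fold and 98% of those changed by 4-fold were recovered. For each fold 100 genes were changed, equally up and down, all above 1 CPM in untreated cells. The simulation therefore does not cover changes in most genes or genes near 0 in untreated cells. Replicate numbers were checked for pairing by correlating deviations from group means. Between 0.25 and 0.5 µM they were 0.266, 0.268 and 0.579, the last between the 2 libraries that stood apart. No other pair of groups had a same-numbered pair over 0.1. Unequal numbers also exceeded 0.1, there (0.236) and between other groups (0.148 for replicate 3 of 0.15 µM and replicate 1 of 0.25 µM). A pairing is therefore uncertain. The main fit assumes none, and a replicate block was used only in alternatives. Positions and exon lengths come from GENCODE 44 and promoters from RefSeq. Named genes are all members and, per list, up to 3 called genes with the highest and lowest log2 fold change at 1 µM, with the receptors KLRK1 and NCR3 and, for members called at all 4 doses, the 2 genes of highest Pearson r; promoters are those of members called at 1 µM. Alternatives were other scalings (RLE, library totals, TMM from genes of at least 10 CPM), no filter or at least 10 counts in every library, DESeq2 1.42.0, limma 3.58.1 on log2(FPKM + 1) and log2(FPKM + 0.1), the compared libraries alone, a replicate block, summed counts of MICA and MICB, and each library left out. Leaving out both libraries that stood apart, and the block within the 0.25 and 0.5 µM libraries, were chosen after seeing the data. Some results for the markers of other cells are not reported here.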

Additional observations from a re-analysis of the deposited data

How the results depend on the processing

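Of 1680 alternative values of the members' log2 fold changes, 1576 kept direction and side of the threshold, 43 lost a call, 27 gained one and 34 changed sign. Over 8 comparisons, 578 of 627 alternative counts of called genes or members stayed within 1.5 times the main count. With at least 10 counts in every library, 7517, 8851, 9784 and 9690 genes were called with ascending dose, and 1, 2, 3 and 3 members were higher and 0 and 1 lower at the lower 2 doses. This filter removes ULBP2, ULBP3 and RAET1G, which are near 0 in untreated cells, while MICB lost its call at both lower doses (-0.246 and -0.308) and BAG6 at 0.25 µM (-0.349) and MICA gained one at 0.15 µM (0.446); between doses it left 1 member higher from 0.15 to 0.25 µM and 3 from 0.25 to 0.5 µM and from 0.15 to 1 µM. At 0.15 µM, library totals and TMM from abundant genes gave 5 members higher and 0 lower, and limma on FPKM, with either pseudocount, gave 0 lower. The compared libraries alone gave 2 lower, omitting both libraries that stood apart gave 3, and leaving out 1 library gave 0 to 2. At 0.25 µM the members lower were 0 under library totals and under limma with either pseudocount and 1 under TMM from abundant genes. From 0.15 to 0.25 µM, 1866 genes were called from the compared libraries alone and 1704 to 4022 with 1 library left out (2911 otherwise). There, 2 to 4 members were higher and 0 to 1 lower with 1 library left out, and 1 was lower with no filter and without both libraries that stood apart. From 0.5 to 1 µM, limma called 1 gene with either pseudocount. Under scaling by library totals 81.9%, 79.2%, 70.2% and 69.4% of called genes were higher with increasing dose, and 75.8%, 75.3%, 71.1% and 70.1% with TMM from abundant genes, against 62.2%, 60.1%, 58.8% and 58.5%.

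Signs changed as follows, and the cause was not tested. With the counts of MICA and MICB summed, the pair had -0.162 at 0.15 µM, -0.0683 at 0.25 µM and 0.036 from 0.5 to 1 µM, where MICA alone had the other sign. From 0.15 to 0.25 µM the pair had 0.0941, where MICB alone was negative. NCR3LG1 was 0.0133 at 0.15 µM under library totals. BAG6 at 0.5 and 1 µM was 0.0938 and 0.144 under library totals, 0.141 and 0.17 under TMM from abundant genes, 0.0354 and 0.0646 with at least 10 counts in every library, 0.0785 and 0.137 under limma on log2(FPKM + 1), and 0.0799 and 0.14 under limma on log2(FPKM + 0.1). Between 0.5 and 1 µM, where no member was called, RAET1G was 0.0048 under library totals, 0.0099 with the replicate block, and 0.0058 and 0.0117 under limma with pseudocounts of 1 and 0.1; without both libraries that stood apart MICB was -0.0142, NCR3LG1 0.0531 and BAG6 -0.166. With 1 library left out, this step ranged from -0.19 to 0.099 for MICA, -0.0191 to 0.18 for MICB, -0.0924 to 0.0527 for ULBP2, -0.24 to 0.19 for RAET1G, -0.22 to 0.0514 for NCR3LG1 and -0.17 to 0.25 for BAG6.

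With the replicate block in the fit of all libraries, 12136, 14750, 15816 and 15808 genes were called at the 4 doses and 7161 from 0.25 to 0.5 µM, and the block changed the count of members called in no comparison of that fit. Within the 6 libraries of 0.25 and 0.5 µM the block called 9935 genes, 7 members higher and 1 lower. Depth limits RAET1E, RAET1L and the untreated levels of ULBP2, ULBP3 and RAET1G, which rest on at most 8 counts per group.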

Other observations

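Protein-coding neighbours within 500 kb of the ligand genes were listed after values had been seen. Around the ULBP and RAET1 genes, 12 neighbours were tested. At 1 µM, 3 were called higher and 6 lower by edgeR, with a median log2 fold change of -0.32. Over all tested genes, 38.8% were called higher and 27.5% lower at that dose. Among the neighbours, the following were called. GINM1 (0.39, edgeR adjusted p = 0.0301) was higher, as were IYD (edgeR adjusted p = 0.000134) and ZC3H12D (edgeR adjusted p = 0.000339), which were at or near 0 counts in untreated cells, so that no fold is given, and PPP1R14C (-1.20, edgeR adjusted p = 4.45e-07) and LATS1 (-1.22, edgeR adjusted p = 2.33e-05), a Hippo pathway kinase, were among those lower. PPIL4 (-0.72, edgeR adjusted p = 0.000318) and NUP43 (-0.53, edgeR adjusted p = 0.00478) were lower as well.

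Around NCR3LG1, which fell, 11 neighbours were tested, and 6 were called higher and 2 lower at 1 µM, with a median of 1.48. Over all tested genes, 38.8% were called higher and 27.5% lower at that dose. Untreated counts of these neighbours are not given here, so large folds among them may rest on levels near 0. KCNJ11, a potassium channel gene on the opposite strand whose span overlaps that of NCR3LG1, was higher at every dose (1.62, 1.24, 1.25 and 1.48, edgeR adjusted p = 1.23e-05 at 1 µM). The adjacent ABCC8, which encodes the partner subunit of that channel, was higher as well (5.81, edgeR adjusted p = 5.28e-07). USH1C, OTOG, MYOD1 and KCNC1 were the other genes called higher. RPS13, a ribosomal protein gene, was called lower at every dose (-0.85, edgeR adjusted p = 0.000637 at 1 µM).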
